A study of Mus musculus with 6 samples.

Results

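The HOX genes were followed in C2C12, an immortalised mouse myoblast line that grows as precursors of skeletal muscle. The members were the protein-coding rows of the deposited gene table named Hoxa, Hoxb, Hoxc or Hoxd plus a number, and there were 36 of them among 32815 gene rows. They lie in 4 clusters, with 11 rows in HOXA on chromosome 6, 9 in HOXB on chromosome 11, 9 in HOXC on chromosome 15 and 7 in HOXD on chromosome 2. No row met this rule for Hoxb1, Hoxd1 or Hoxd13, so the counts and sums below leave these genes out. The series compared 3 libraries of C2C12 cells after cyclic mechanical stretch (MS) with 3 libraries of control C2C12 cells. Both groups are labelled wild-type and carry the same batch label. The MS cells were stretched for 8 h at 1 Hz with a plate displacement of 4 mm, on a loading system that bends the plate. All libraries came from 1 cell line. The labels do not state separate cultures within a group, and p-values therefore reflect library-to-library spread that may be purely technical.

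HOX genes encode homeodomain transcription factors that give cells a position along the head-to-tail axis and, in limbs, from the shoulder or hip outward. Within a cluster the genes stand in the order in which they are used along the body, from paralogue group 1 (anterior) to group 13 (posterior), and copies with the same number in different clusters are paralogues with overlapping roles. Cells cultured from adult muscle or skin often keep a HOX pattern of their site of origin, and C2C12 descends from mouse thigh muscle. Polycomb complexes keep unused HOX genes silent and trithorax complexes keep used ones active, and HOX proteins bind DNA together with cofactors of the TALE class (PBX, MEIS and PKNOX proteins).

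Sequences of promoter windows are shown for HOX genes that stand for the patterns described below: Hoxa5, Hoxa6 and Hoxa10, which were lower in MS, Hoxa11, the most abundant HOXA transcript, and Hoxd10, a HOXD paralogue of Hoxa10 with almost no signal. Each window runs from 250 bases before to 50 after an annotated start (RefSeq, GRCm38.p6) and is written 5′ to 3′ on the gene's strand, with CG dinucleotides in capitals. These coordinates are of another build than those of the expression table (mm39).
Hoxa5 window, chr6:52204538-52204837 (minus strand): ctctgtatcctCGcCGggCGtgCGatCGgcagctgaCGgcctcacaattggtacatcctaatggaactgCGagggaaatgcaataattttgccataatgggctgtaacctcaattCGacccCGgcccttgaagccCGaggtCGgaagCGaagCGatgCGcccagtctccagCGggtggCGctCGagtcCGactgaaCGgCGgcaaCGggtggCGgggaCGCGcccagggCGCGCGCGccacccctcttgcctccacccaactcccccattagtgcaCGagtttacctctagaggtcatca
Hoxa6 window, chr6:52208623-52208922 (minus strand): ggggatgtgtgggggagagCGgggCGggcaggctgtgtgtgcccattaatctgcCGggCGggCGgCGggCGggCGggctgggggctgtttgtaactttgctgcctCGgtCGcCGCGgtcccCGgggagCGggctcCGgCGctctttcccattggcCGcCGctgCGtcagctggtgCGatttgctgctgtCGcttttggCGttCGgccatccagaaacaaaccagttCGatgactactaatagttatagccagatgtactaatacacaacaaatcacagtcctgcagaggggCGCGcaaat
Hoxa10 downstream start, chr6:52234890-52235189 (minus strand): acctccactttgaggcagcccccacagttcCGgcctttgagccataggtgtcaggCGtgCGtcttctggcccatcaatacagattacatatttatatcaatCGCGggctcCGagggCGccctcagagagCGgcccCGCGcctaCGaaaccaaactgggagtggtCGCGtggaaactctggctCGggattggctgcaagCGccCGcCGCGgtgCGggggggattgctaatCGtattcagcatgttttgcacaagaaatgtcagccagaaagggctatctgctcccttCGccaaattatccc
Hoxa10 upstream start, chr6:52240805-52241104 (minus strand): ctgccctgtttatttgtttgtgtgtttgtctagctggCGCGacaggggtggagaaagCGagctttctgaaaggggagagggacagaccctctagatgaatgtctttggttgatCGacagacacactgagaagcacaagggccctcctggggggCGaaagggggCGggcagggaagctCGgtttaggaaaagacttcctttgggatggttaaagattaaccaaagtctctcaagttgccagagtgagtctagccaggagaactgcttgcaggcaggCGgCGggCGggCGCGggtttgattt
Hoxa11 window, chr6:52245761-52246060 (minus strand): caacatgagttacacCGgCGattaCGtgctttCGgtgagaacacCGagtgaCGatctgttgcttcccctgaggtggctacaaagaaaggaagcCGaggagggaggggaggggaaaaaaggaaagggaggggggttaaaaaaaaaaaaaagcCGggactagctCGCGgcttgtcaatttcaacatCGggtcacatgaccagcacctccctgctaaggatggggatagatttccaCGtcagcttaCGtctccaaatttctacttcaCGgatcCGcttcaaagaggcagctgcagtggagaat
Hoxd10 window, chr2:74691641-74691940 (plus strand): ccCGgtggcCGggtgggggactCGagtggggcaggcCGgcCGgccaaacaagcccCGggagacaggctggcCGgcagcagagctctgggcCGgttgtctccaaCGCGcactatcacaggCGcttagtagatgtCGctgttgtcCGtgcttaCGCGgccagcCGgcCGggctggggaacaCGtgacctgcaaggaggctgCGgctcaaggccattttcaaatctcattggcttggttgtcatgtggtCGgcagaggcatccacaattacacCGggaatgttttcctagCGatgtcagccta
Windows were found for 19 of the 36 genes, 21 windows in all. The 8 windows of genes that averaged 1 FPKM or more in control held 4 to 29 CG dinucleotides (median 13.5), and the 13 windows of genes below that level held 4 to 45 (median 14), against a median of 7 over all 32851 windows of the table. The counts of HOX genes above and below this level thus overlapped. Not all genes below it were silent: Hoxa13, whose window held 45, was at 0.858, 1.25 and 0.615 FPKM in control. Of the HOXC genes only Hoxc4 had a window, so the called HOXC genes are not covered. A CCAAT motif (letters CCAAT, either strand) stood in 4 of the 8 and 8 of the 13 windows, against 37.4% of all windows. The letters TGATTNAT, a motif bound by PBX and HOX proteins together, stood in 0 of the 8 and 2 of the 13, against 3.22% of all windows, and TATAAA stood in 1 and 2, against 13.6%. The motifs were searched on both strands, and matches of different motifs may share bases. A match or its absence describes these letters only.

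The clusters also carry microRNAs of the families miR-10 and miR-196, which are known to repress HOX messages. Their mature sequences (RefSeq, GRCm38.p6) are shown with the seed, bases 2 to 8, in capitals.
mmu-miR-10a-5p: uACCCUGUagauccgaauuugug
mmu-miR-10b-5p: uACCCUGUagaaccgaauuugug
mmu-miR-196a-5p: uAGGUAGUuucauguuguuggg
mmu-miR-196b-5p: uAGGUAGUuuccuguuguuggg
The first pair share 1 seed and the second pair share another. Libraries of fragmented poly(A) RNA do not measure mature microRNAs, so the rows of these genes say nothing of their level. Mir10a, Mir196a-1 and Mir196b did not exceed 0.0222 FPKM in any library, and Mir196a-2, which lies inside the Hoxc5 row, was at 0 in MS, against 0.185, 1.06 and 0 FPKM in control.

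C2C12 cells expressed genes of the HOXA and HOXC clusters, with HOXB and HOXD near 0, in both groups. Levels are in FPKM, a unit per transcript length and per library total, so they can be set side by side for different genes. HOXA summed to 47.5 ± 2.34 FPKM in MS and 54.7 ± 4.09 in control, and HOXC to 52.5 ± 1.08 in MS and 51.8 ± 2.11 in control (SD, n = 3 each). HOXB summed to 0.833 ± 0.316 FPKM in MS and 0.713 ± 0.0579 in control. HOXD summed to 0.152, 0.104 and 0.149 FPKM in MS 1, 2 and 3, against 0, 0.0206 and 0.127 in control 1, 2 and 3. HOXA took 45.8% to 48.2% of the HOX total in MS and 49.8% to 51.9% in control, and HOXC 51.1% to 52.9% in MS and 47.5% to 49.4% in control. The ranges of these shares did not overlap between the groups. The summed level of HOXA was lower in each MS library than in each control library, and that of HOXC overlapped. The HOXA margin was narrow, with 49 FPKM in MS 3 against 50 in control 3. With libraries scaled to equal FPKM sums, the log2 ratio of MS over control for HOXA went from -0.20 to -0.09.

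**Figure D1:**
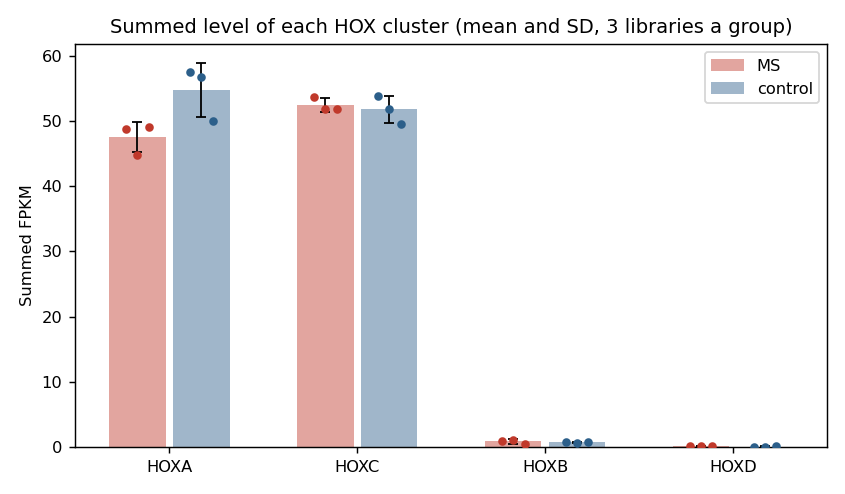
Summed FPKM of the protein-coding genes of each HOX cluster, with MS left of control; bars are means, error bars SD and points the 3 libraries of a group. HOXA and HOXC each sum to between 44.8 and 57.5 FPKM in every library, and HOXB and HOXD stay at or below 1.12.

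A mean of at least 1 FPKM was taken as expressed, which is also the threshold for testing over the mean of all 6 libraries. By this measure 14 HOX genes were expressed in control and 14 in MS, all in HOXA (7) and HOXC (7), and 14 of 36 members were tested. The other 22 averaged less than 1 FPKM over all libraries and were not tested. Of these, the 6 of HOXA and HOXC (Hoxa2, Hoxa3, Hoxa4, Hoxa13, Hoxc5 and Hoxc8) had means over all libraries of 0.259 to 0.782 FPKM. The 9 of HOXB had means of 0.0262 to 0.286 and the 7 of HOXD of 0 to 0.0418, and Hoxd11 was listed at 0 in every library. The median over all 12028 tested genes was 7.7 FPKM, and Hoxa11, at 18 FPKM in MS and 19.6 in control, lay above 76.2% of them.

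The profile peaked in paralogue groups 10 and 11, which in mouse limbs pattern the thigh and the lower leg, among other roles. In control, the highest HOX transcripts were Hoxc10 (19.8, 21.6 and 21.5 FPKM) and Hoxa11 (20.1, 20.4 and 18.3 FPKM), whose values overlapped. Hoxa10 followed at 11.9 ± 1.21 FPKM, below both in every control library (SD, n = 3). Hoxc11 (8.04 FPKM on average), Hoxc6 (7.69), Hoxa7 (6.95), Hoxc9 (6.71) and Hoxa9 (6.43) formed a middle group in which no gene was separated from the next by its control values. Hoxc4 (4.11), Hoxa5 (3.33) and Hoxa6 (2.88) came next; Hoxc4 was apart from both neighbours in the order, and Hoxa5 and Hoxa6 overlapped. Among the lowest expressed were Hoxc13 (1.92) and Hoxc12 (1.14), whose control values did not overlap.

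Groups 9 to 11 together took 67% to 68.3% of the HOX total in MS and 67.4% to 69.8% in control. Groups 1 to 8 took 26% to 27.4% in MS and 26.7% to 28.9% in control. Groups 12 and 13 took 5.41% to 5.85% in MS and 3.1% to 4.48% in control, ranges that did not overlap, while those of the other groups of paralogues did. Hoxa13, which in mice patterns the hand and foot plate, was at 0.656 ± 0.223 FPKM in MS and 0.907 ± 0.319 in control (SD, n = 3 each).

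**Figure D2:**
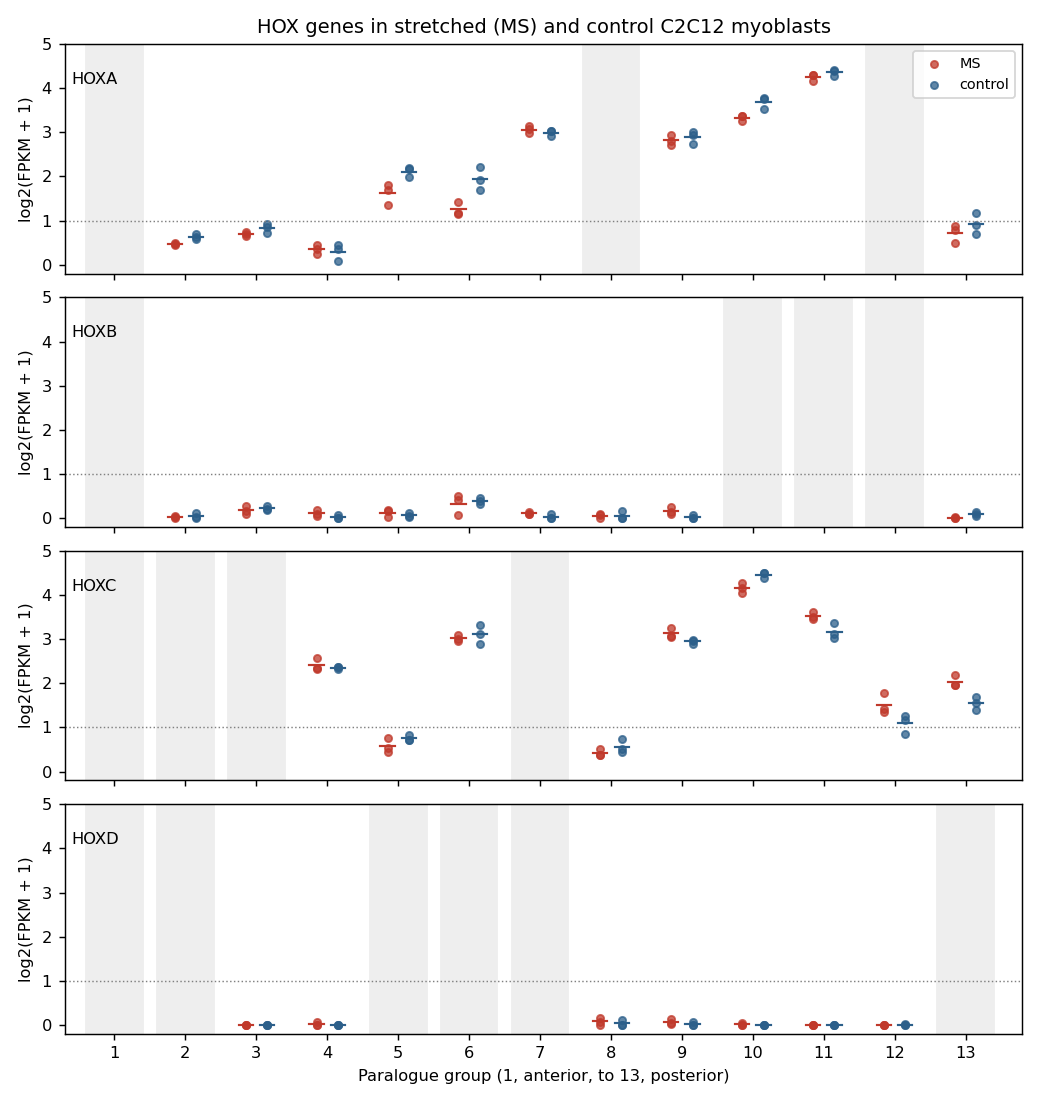
Level of the HOX genes described here, as log2(FPKM + 1), by paralogue group, with MS left of control; points are libraries, short lines are means, the dotted line is 1 FPKM, and grey bands mark paralogue numbers with no row described here. HOXA and HOXC rise toward groups 10 and 11, and HOXB and HOXD stay under 1 FPKM throughout.

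The sample labels call these cells myoblasts, and 8 of 10 myoblast markers averaged 1 FPKM or more, with summed levels of 87.6 to 106 FPKM in MS and 114 to 126 in control. Desmin (Des) was at 46.7 to 57.8 FPKM in MS and 51 to 59.8 in control, while Myod1, the master factor of muscle fate, was at 0.823 to 1.2 FPKM in MS and 1.42 to 2 in control (log2 fold change -0.38, adjusted p = 0.0283 by the limma fit described below). Pax7, the marker of resting muscle stem cells, was at 0 in 5 of 6 libraries and at 0.0094 FPKM in MS 3. Transcripts of other tissues were present, and libraries stood apart by them. The kidney androgen-regulated transcript Kap was at 86.9 to 96 FPKM in MS and 87 in control 3, against 0.155 and 0.302 in control 1 and control 2. The kidney list without Aqp1 (25 genes, Kap among them) summed to 109 to 120 FPKM in MS and 109 in control 3, against 4.33 and 4.95 in control 1 and 2; Aqp1 itself was at 115 to 127 FPKM in MS and 134 to 139 in control. Tongue and salivary markers summed to 178 FPKM in MS 1 and 152 in control 3, against 13.2 to 17.1 in the other 4 libraries, and mature muscle genes to 149 in MS 1 and 109 in control 3, against 2.68 to 6.64. Lens markers split the same libraries the other way. They summed to 314 FPKM in MS 1 and 263 in control 3, against 783 and 888 in MS 2 and 3 and 1059 and 888 in control 1 and 2. Sums of blood markers were 34.7 to 37.7 FPKM in MS and 10.2 to 12.9 in control. The macrophage and lysosome gene Cd68 was at 24.8 to 29.7 FPKM in MS and 3.72 to 5.12 in control and the globin Hba-a1 at 6.62 to 7.18 in MS and 6.31 to 7.46 in control, while the leukocyte gene Ptprc did not exceed 0.0578 and Cd3e was at 0. Neuron markers summed to 11.3 to 13 FPKM in MS and 9.25 to 10.7 in control, mostly Tubb3. The myoblast, blood and neuron sums thus moved with the groups, but single members did not all follow. Itga7, Vcam1, Cdh15 and Ncam1 of the myoblast list were called lower like Myod1, while Chrna1 was higher (0.37, adjusted p = 0.0027). Syt1 of the neuron list was lower (-0.33, adjusted p = 0.0264), against its sum. Endothelial markers stayed at 1.67 FPKM or less. The part of all these markers in the HOX values was not tested beyond the alternatives given beside the results.

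Among the 14 tested HOX genes, stretched cells had more Hoxc11 and Hoxc13 and less Hoxa5, Hoxa6, Hoxa10 and Hoxc10 than control cells, each by less than 2-fold on the log2(FPKM + 1) scale. The test was limma's moderated test on log2(FPKM + 1) over all 12028 tested genes, and a gene was called at a Benjamini-Hochberg adjusted p under 0.05. Of 14 HOX genes, 6 were called, against 53.8% of all tested genes; 2 were higher, against 30.6%, and 4 were lower, against 23.2%. The MS and control values did not overlap for 8 of 14, against 62.7% of all tested genes, with 4 higher (35.9% of all) and 4 lower (26.8% of all). The median log2 fold change was -0.01 for the tested HOX genes and 0.05 for all tested genes. Fewer cells that carry a transcript and less of it per cell cannot be told apart in these bulk libraries.

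**Figure D3:**
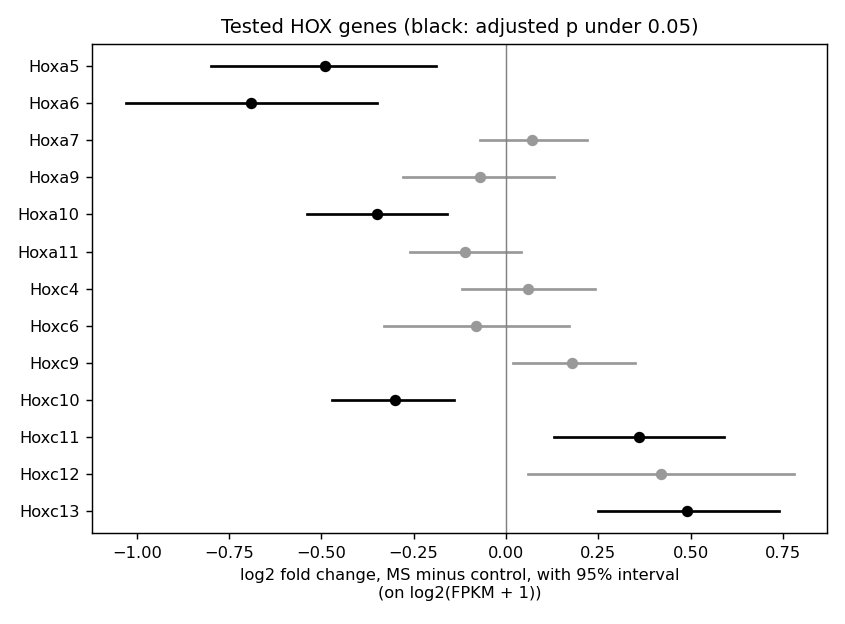
Log2 fold change (MS minus control, on log2(FPKM + 1)) of the tested HOX genes described here, each with its 95% interval before adjustment; black marks an adjusted p under 0.05. In HOXC the fold change is -0.30 for Hoxc10 and 0.36, 0.42 and 0.49 for Hoxc11, Hoxc12 and Hoxc13.

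Both genes called higher lie toward the posterior end of HOXC. Hoxc13 (chromosome 15, 102829538 to 102837249, mm39), which in mice controls hair and nail keratins, was at 2.89, 2.9 and 3.57 FPKM in MS, against 1.94, 2.2 and 1.63 in control. The lowest MS value was above the highest control value. It rose by 0.49 on the log2 scale (SE 0.10, adjusted p = 0.00588), and it was the only HOX gene whose call held under each of the 18 alternatives in which it could be fitted (log2 fold change 0.42 to 0.67, adjusted p from 0.00242 to 0.0481). Hoxc11 (102862862 to 102866143), a paralogue of the lower leg group, was at 9.9, 10.4 and 11.3 FPKM in MS, against 9.35, 7.12 and 7.66 in control. The groups did not overlap, although MS 1 and control 1 were close. Hoxc11 had a log2 fold change of 0.36 (SE 0.10, adjusted p = 0.0174), and its call was lost without MS 3 (0.31, adjusted p = 0.0641) and without control 2 (0.28, adjusted p = 0.0555), within adjusted p from 0.00407 to 0.205 over 19 alternatives.

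Between these, Hoxc12 (102845192 to 102847044) was at 2.42, 1.56 and 1.65 FPKM in MS, against 1.23, 1.4 and 0.799 in control. No control library reached an MS library. Its log2 fold change was 0.42 (adjusted p = 0.0511; unadjusted 95% interval 0.06 to 0.78), so it missed the threshold. It was called under 6 of 18 alternatives, among them without control 2 (0.51, adjusted p = 0.0498), within adjusted p from 0.00762 to 0.183, and was at 0.17 without its highest MS library and its lowest control library, MS 1 and control 3 (adjusted p = 0.183). Hoxc9 (102884874 to 102893531), which helps set thoracic identity, was at 7.45, 8.58 and 7.29 FPKM in MS, against 6.95, 6.78 and 6.41 in control. The groups did not overlap for it either, with a difference of 0.18 on the log2 scale (adjusted p = 0.0606; unadjusted 95% interval 0.02 to 0.35).

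Hoxc10 (102875231 to 102880328), the HOX transcript with the highest mean in control, moved the other way from Hoxc11. It was at 18.2, 16.8 and 15.5 FPKM in MS, against 19.8, 21.6 and 21.5 in control. All MS values were below all control values, and it fell by 0.30 on the log2 scale (SE 0.07, adjusted p = 0.00825). The quotient of Hoxc11 over Hoxc10 was 0.544, 0.621 and 0.729 in MS, against 0.472, 0.329 and 0.356 in control, and that of Hoxc13 over Hoxc10 was 0.158, 0.173 and 0.23 in MS, against 0.0977, 0.102 and 0.0758 in control. Neither quotient overlapped between the groups; both were chosen after the values were seen and have no test. At the anterior end of the cluster, Hoxc6 was at 7.16 ± 0.396 FPKM in MS and 7.69 ± 1.27 in control (log2 fold change -0.08, 95% interval -0.33 to 0.17, adjusted p = 0.558). Hoxc4 was at 4.34 ± 0.504 FPKM in MS and 4.11 ± 0.0604 in control (0.06, interval -0.12 to 0.24, adjusted p = 0.545; SD, n = 3 each). Both intervals exclude a 2-fold difference between these libraries. The rows of Hoxc6, Hoxc9 and Hoxc10 overlap that of Hoxc5 on the same strand.

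In HOXA the called genes were all lower in MS. Hoxa6 (chromosome 6, 52183268 to 52185702), a gene of thoracic identity, was at 1.22, 1.69 and 1.26 FPKM in MS, against 3.61, 2.8 and 2.24 in control. No MS library reached the lowest control. It fell by 0.69 on the log2 scale (SE 0.14, adjusted p = 0.00583), the largest of the 14, and its FPKM means were 1.39 in MS and 2.88 in control. Hoxa5 (52178734 to 52181567), needed in mice for lung development and for the form of the neck and upper chest vertebrae, was at 2.51, 1.54 and 2.24 FPKM in MS, against 3.52, 3.53 and 2.94 in control. It fell by 0.49 (SE 0.13, adjusted p = 0.0156) with no overlap between the groups, and lost its call without control 1 (-0.46, adjusted p = 0.0508) and without control 2 (-0.46, adjusted p = 0.0536), within adjusted p from 0.0047 to 0.53 over 18 alternatives. Both genes lie inside the spans of the Hoxa3 and Gm28308 rows on the same strand, and how reads were divided between such rows is not stated in the labels or file.

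Hoxa10 (52208177 to 52217775), a paralogue of the thigh group, was at 9.34, 8.48 and 9.38 FPKM in MS, against 12.4, 12.8 and 10.5 in control. The groups did not overlap, and it fell by 0.35 on the log2 scale (SE 0.08, adjusted p = 0.00862), so that both expressed members of paralogue group 10, Hoxa10 and Hoxc10, were lower in MS. Group 10 summed to 25.9 FPKM in MS and 32.9 in control, and group 11 to 28.6 in MS and 27.6 in control. Hoxa11, its neighbour, was at 18.8, 16.8 and 18.6 FPKM in MS, against 20.1, 20.4 and 18.3 in control. Its groups overlapped (log2 fold change -0.11, 95% interval -0.26 to 0.04, adjusted p = 0.186). Hoxa7, at 7.36 ± 0.442 FPKM in MS and 6.95 ± 0.337 in control, differed by 0.07 on the log2 scale (adjusted p = 0.357, interval -0.07 to 0.22). Hoxa9, at 6.05 ± 0.529 in MS and 6.43 ± 0.664 in control, differed by -0.07 (adjusted p = 0.5, interval -0.28 to 0.13; SD, n = 3 each). The intervals of Hoxa7, Hoxa9 and Hoxa11 exclude a 2-fold difference on this scale, by the spread between these libraries.

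The HOX calls were also fitted with terms for the libraries that stood apart. Control 3 was the only control library with high kidney transcripts, and all MS libraries carried them. With the kidney set (control 1 and 2 against the other 4 libraries) as a term, the contrast rests on control 3 as its only control; Hoxc13, Hoxc12 and Hoxc10 were called and Hoxa5, Hoxa6, Hoxa10 and Hoxc11 were not, while 39.1% of all genes were. The log2 fold changes of those not called were 0.41 for Hoxc11 (SE 0.14, adjusted p = 0.0566), -0.36 for Hoxa5 (SE 0.18, adjusted p = 0.151), -0.44 for Hoxa6 (SE 0.16, adjusted p = 0.0723) and -0.19 for Hoxa10 (SE 0.08, adjusted p = 0.0963). With 3 library sets as a term (control 1 and 2; control 3 and MS 1; MS 2 and 3), added after the data were seen, Hoxc12 and Hoxc13 were called higher and 0 HOX genes lower by limma, 1 at an unadjusted p under 0.05, while 26.3% of all genes were called. That fit rests on MS 1 minus control 3, the pair with the same tongue, salivary and kidney transcripts, so with 1 library a side its error is borrowed from the pairs control 1 and 2 and MS 2 and 3, on the assumption that MS 1 and control 3 vary like them. A call lost in that fit does not show that a difference is absent. On the log2(FPKM + 1) scale this difference was 0.56 for Hoxc13, 0.93 for Hoxc12 and 0.33 for Hoxc11. It was -0.23 for Hoxc10, -0.15 for Hoxa10, -0.54 for Hoxa6 and -0.17 for Hoxa5. Without control 3 and MS 1, the 6 called genes were the same as with all libraries, and 51.1% of all genes were called. With control 3 and MS 1 set apart from the other 4 libraries by a term, 2 HOX genes were called higher and 4 lower, against 53.1% of all genes called. With libraries scaled to equal FPKM sums, which shifted the median of all genes by 0.10 on the log2 scale, 5 HOX genes were called higher (Hoxa7, Hoxc9 and Hoxc12 in addition) and 4 lower, against 58.6% of all genes; of all calls 71.2% were then higher, against 56.9% without that scaling.

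Several low rows of HOXB and HOXD were above 0 in the libraries that carried kidney transcripts. Hoxb7, Hoxb8, Hoxb9, Hoxd8 and Hoxd9 were at 0 in control 1 and control 2 and above 0 in control 3 and in at least 1 MS library; the 5 rows were picked after their values were seen. Together they summed to 0.33, 0.384 and 0.327 FPKM in MS 1, 2 and 3 and to 0.356 in control 3. Hoxb9 was at 0.185, 0.108 and 0.0637 FPKM in MS, against 0, 0 and 0.0423 in control, and Hoxb7 at 0.0726, 0.108 and 0.0616 in MS, against 0, 0 and 0.071 in control. The choice of the rows fixes their absence from control 1 and 2 and their presence in control 3 and at least 1 MS library. The likeness to Kap is therefore no evidence of a link. Singly, Hoxb8 was at 0 in MS 1 and Hoxd8 in MS 2. Hoxb7 is active in the collecting duct lineage of the mouse kidney. These values rest on few reads: if the commonest step among low values, 0.0548 to 0.0575 FPKM on a 1 kb transcript, is 1 read pair, Hoxb9 had about 8.5, 5 and 2.9 read pairs in MS and 2 in control 3. The part of kidney transcripts in these rows was not tested. Of the 16 HOXB and HOXD rows, only these 5 showed the pattern. Hoxb2, Hoxb3, Hoxb4, Hoxb5, Hoxb6 and Hoxb13 did not, nor did Hoxd3, Hoxd4, Hoxd10, Hoxd11 and Hoxd12. Hoxb6, the highest of HOXB, was at 0.335, 0.409 and 0.057 FPKM in MS, against 0.363, 0.307 and 0.247 in control.

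**Figure D4:**
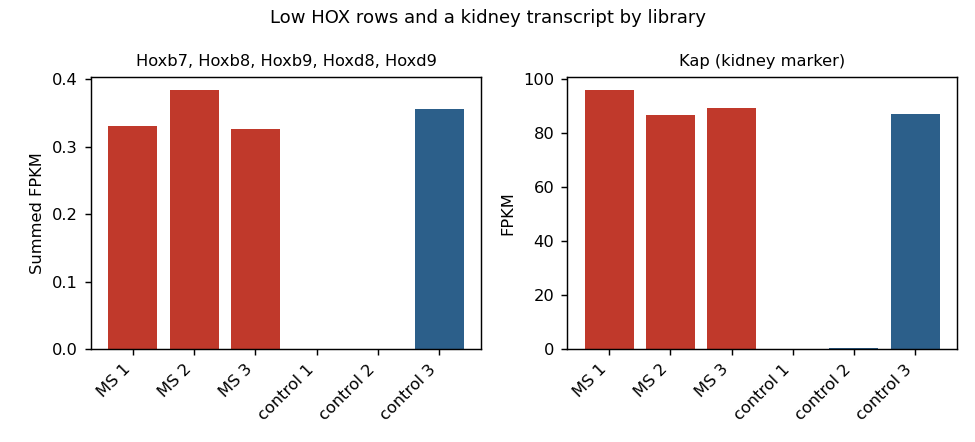
Left, summed FPKM of Hoxb7, Hoxb8, Hoxb9, Hoxd8 and Hoxd9 in each library; right, FPKM of the kidney transcript Kap in the same libraries, MS left of control. The HOX rows were chosen for being at 0 in control 1 and control 2 and above 0 in control 3 and an MS library. That choice builds in the likeness to Kap. Their sum is between 0.327 and 0.384 FPKM in control 3 and the MS libraries.

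Noncoding transcripts of the clusters were measured in the same libraries. Of 37 noncoding rows in or named for the clusters, 5 were tested, 1 was called higher and 0 lower by limma (1 and 0 at an unadjusted p under 0.05), against 53.8% of all tested genes called. With the 3 library sets as a term limma called 0 of them, 2 being higher and 0 lower at an unadjusted p under 0.05. Hoxa11os, the antisense partner of Hoxa11, was at 10.7, 11 and 10.6 FPKM in MS, against 10, 10.7 and 8.93 in control (0.12, adjusted p = 0.177), and Hotair, the HOXC long noncoding RNA between Hoxc11 and Hoxc12, at 1.05, 0.95 and 1.34 in MS, against 1.06, 0.772 and 0.835 in control (0.16, adjusted p = 0.258). The libraries were made strand-marked, per the labels' protocols, but no source says whether counting used the strand, so reads of Hoxa11 and Hoxa11os may not be told apart. Hottip, a transcript beyond Hoxa13, did not exceed 0.0389 FPKM in MS and was at 0 in control.

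Genes that flank the clusters were called in both directions. Of the 24 nearest protein-coding genes with a row, 3 on each side of each cluster, 21 were tested. Of these, 7 were higher and 3 lower, with a median log2 fold change of 0. These counts are near the share of all tested genes (30.6% higher and 23.2% lower). With the 3 library sets as a term 2 were higher and 2 lower, Cbx3 and Cbx5 among the called and Smug1 not. Cbx3, a heterochromatin protein 1 gene, was the farthest from HOXA on its side (51447340 to 51460684, against a HOXA start of 52132570). It fell to 11.4 ± 0.383 FPKM in MS, against 19.2 ± 1.68 in control (SD, n = 3 each, log2 fold change -0.70, adjusted p = 0.000203). Cbx5, another of that family on a flank of HOXC, fell by 0.57 (adjusted p = 0.000515). The DNA repair gene Smug1, between Cbx5 and HOXC, rose by 0.39 (adjusted p = 0.00218). The flanking genes of the silent HOXD cluster were expressed. Among them Nfe2l2, the oxidative stress factor NRF2 and the farthest on its side, was at 49 FPKM in MS and 40.9 in control. It is named here outside the naming rule.

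Most HOX cofactors were expressed. Of 9 TALE genes 8 were tested, of which 2 were lower and 0 higher by limma (2 and 0 at an unadjusted p under 0.05), with a median log2 fold change of -0.15. The lower ones are near the 23.2% of all tested genes called lower, while 30.6% were called higher. Pbx3, a PBX cofactor, was at 1.34, 1.24 and 1.32 FPKM in MS, against 1.92, 1.77 and 1.98 in control, and fell by 0.33 (adjusted p = 0.0088). Its groups did not overlap. It was not called with the 3 library sets as a term, which called Meis3 higher.

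Chromatin regulators of HOX genes were called in both directions. Of 30 Polycomb genes, all tested, 7 were higher and 10 lower, with a median of -0.07, against 30.6% and 23.2% of all tested genes and a median of 0.05. Ezh2, the methyltransferase of Polycomb complex PRC2, fell to 7.45 ± 0.393 FPKM in MS, against 15.3 ± 0.727 in control (log2 fold change -0.94, adjusted p = 3.19e-05). Phf19, which brings PRC2 to chromatin, fell to 2.46 ± 0.133 FPKM in MS, against 10 ± 0.333 in control (-1.67, adjusted p = 1.09e-05), and the histone-binding subunit Rbbp7 fell by 0.51 (adjusted p = 0.000177; SD, n = 3 each). Ezh1, the other PRC2 methyltransferase, named here outside the naming rule, rose by 0.40 (adjusted p = 0.00866). Of 20 trithorax, COMPASS and demethylase genes, 4 were higher and 7 lower, with a median of -0.04. The share of calls in both lists was near the 53.8% of all tested genes, so the counts say nothing particular of these regulators. Kdm6b, a demethylase of the mark that PRC2 sets, rose to 9.17 ± 0.491 FPKM in MS, against 6.06 ± 0.326 in control (0.53, adjusted p = 0.000441). Psip1, which tethers MLL complexes to chromatin, fell by 0.55 (adjusted p = 0.000345) and Aff1, of the elongation complexes, rose by 0.30 (adjusted p = 0.00153). With the 3 library sets as a term 5 Polycomb genes were higher and 6 lower, Ezh2, Phf19 and Rbbp7 among them, and 2 and 1 of the trithorax list.

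Retinoic acid, an inducer of anterior HOX genes, has its own carriers, enzymes and receptors. Of 18 genes of this list 8 were tested, of which 1 was higher and 3 lower, with a median of 0.11; the share of calls is near the 53.8% of all tested genes. The carrier Crabp2 rose to 68.1 ± 1.64 FPKM in MS, against 48.6 ± 2.33 in control (0.48, adjusted p = 0.000251). Rdh10, which makes retinal for retinoic acid synthesis, fell to 14.4 ± 1.66 FPKM in MS, against 20.5 ± 2.58 in control (-0.48, adjusted p = 0.00811), and the receptor Rxra fell by 0.18 (adjusted p = 0.0278; SD, n = 3 each). All calls of lower genes in this list, Rdh10 and Rxra among them, were lost with the 3 library sets as a term. That fit rests on MS 1 minus control 3, which was 0.49 for Crabp2, -0.11 for Rdh10 and -0.18 for Rxra. In that pair Dhrs3, named here outside the naming rule, was at 0.77. With all libraries it was not called (0.29, adjusted p = 0.172).

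Other factors of position were lower after stretch in most tested cases. Of 43 measured genes of this list 14 were tested, of which 10 were lower and 0 higher by limma (12 and 0 at an unadjusted p under 0.05), against 23.2% and 30.6% of all tested genes, with a median of -0.34, against 0.05. Zic1, a zinc finger factor of the dorsal neural tube and somites, was at 2.6, 2.57 and 2.59 FPKM in MS, against 4.68, 4.38 and 3.75 in control. All MS values were below all control values, and it fell by 0.55 (adjusted p = 0.00111). With the 3 library sets as a term 2 genes of the list were called lower, Zic1 among them. Limb factors of the list, named here outside the rule, had unlike levels. Tbx4 and Pitx1, which mark hindlimb in mouse embryos, averaged 0.35 and 0.0906 FPKM in MS and 0.183 and 0.0667 in control. Tbx5, which marks forelimb, averaged 0.0682 FPKM in MS and 0.0701 in control. Shox2, a factor of proximal limb bones, was at 13.7 ± 0.842 FPKM in MS and 13.2 ± 0.688 in control, and Prrx1, a factor of limb mesenchyme, at 19.1 ± 2.42 in MS and 28.2 ± 2.47 in control (SD, n = 3 each).

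**Figure D5:**
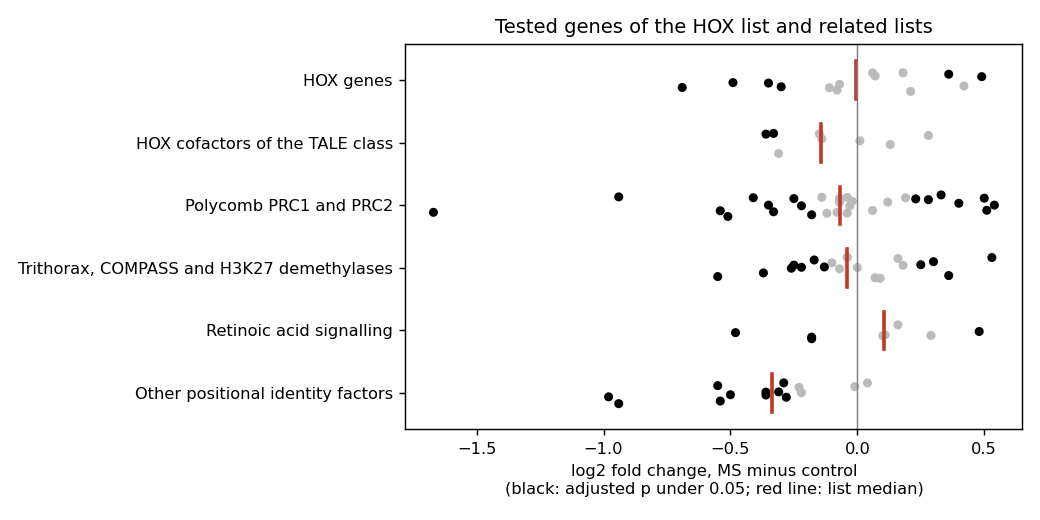
Log2 fold change (MS minus control) of each tested gene in the HOX list and 5 related lists; black points have an adjusted p under 0.05 and red lines are list medians. The HOX median is -0.01, and that of the other positional factors is -0.34.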

How the data were processed

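RNA was measured by poly(A) selected, strand-marked paired-end RNA-seq in 3 MS and 3 control libraries of C2C12. The deposited values are FPKM, 1 per gene and library, per the file headers. Sequences are RefSeq's (GRCm38.p6). The submitters' processing notes list, with no role or order, edgeR, DESeq2, StringTie 2.1.6, HISAT2 2.2.1 and cutadapt 1.9, and the build mm39. Filters, the treatment of multi-mapped reads and the strand setting are not stated there. Genes took symbols from a GENCODE M21 name table by Ensembl ID (31077 of 32815 rows).

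Count models were not used, since FPKM is a normalized unit. Genes averaging 1 FPKM or more over the 6 libraries were tested on log2(FPKM + 1), which understates changes of low genes, with limma 3.58.1 in R 4.3.3 (lmFit, eBayes with trend, 2 groups, no covariate), as a two-sided test adjusted by Benjamini-Hochberg over the 12028 genes. Every adjusted p comes from this fit or a named alternative. FPKM sums were 298991 to 304570 in MS and 323607 to 329968 in control. Depth is not stated. Low values of genes with 1 transcript, multiplied by its length, piled up at 1 step within the range searched. Multiples of that step were not examined. The approximate read pairs of a gene take this commonest step as 1 pair and the longest M21 transcript as its length. The members and lists were chosen with earlier results of these data known. The text names the tested HOX genes and up to 3 called members of each other list by smallest adjusted p; some results are not reported here, although counts, sums and medians include their genes. The test was checked on simulated data. The alternatives were other pseudocounts, filters, scalings, variance priors and library weights, terms for library sets and replicate numbers, and leaving out libraries.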

Additional observations from a re-analysis of the deposited data

How the results depend on the processing

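Of the 6 HOX calls, Hoxc13 alone held in every alternative in which it was fitted. The count of higher HOX genes was 2, with 53.8% of all tested genes called in either direction. It became 1 without the low-value filter (35 HOX genes tested, 20.8% of all tested genes called). It was 1 at a mean of at least 5 FPKM (8 HOX genes tested, 61.3% of all tested genes called) and 5 with equal FPKM sums (58.6%). The number tested and the share called thus changed with these settings too. The count of lower HOX genes was 4 and became 2 at a mean of at least 5 FPKM, 1 with the kidney set as a term and 0 with the 3 library sets as a term, where limma gave 1 at an unadjusted p under 0.05. Leaving out single libraries gave 1 to 2 higher, 3 to 4 lower and 5373 to 6487 calls over all genes, against 6470; 1 higher came without MS 3, and the 3 library sets left 3166. Equal FPKM sums shifted the median of all genes by 0.10 and made 71.2% of calls higher, against 56.9%. For summed levels, the log2 ratio of MS over control was -0.20 for HOXA, 0.22 for HOXB and 0.02 for HOXC. Medians over members gave -0.78, 1.03 and 0.08; equal FPKM sums gave -0.09 for HOXA and 0.14 for HOXC; HOXC was at -0.03 with median-of-ratios scaling and -0.03 without control 3 and MS 1. The HOXB ratio turned to -0.05 without MS 2 and was 0.49 without MS 3. No ratio was formed for HOXD, at 0 in control 1. Signs of single genes turned only where they were not called. With equal FPKM sums Hoxa9 was at 0.03 and Hoxc6 at 0.02; with the kidney set as a term Hoxa9 was at 0.07 and Hoxc6 at 0.14. With the 3 library sets as a term Hoxa7 was at -0.05, Hoxa9 at 0.18, Hoxa11 at 0.04 and Hoxc6 at 0.12. Hoxc6 lay between -0.19 (without control 3) and 0.02 (without control 1) when single libraries were left out, and Hoxc4 was at -0.01 without control 3 and MS 1 and at -0.02 without MS 1. The cause was not tested. Deviations of same-numbered libraries from their group means correlated across genes at -0.334, 0.245 and -0.372, and those of MS 1 and control 3 at 0.456. These values do not settle whether same-numbered libraries were handled together, since MS 1 and control 3 stood apart by tongue, salivary, muscle and lens transcripts. With the replicate block 5890 genes were called, 3 HOX genes higher and 4 lower. The step of low values limits what HOXB and HOXD can show. By it no HOXB gene exceeded about 14.4 read pairs in a library and no HOXD gene about 5.8.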
